A study of Mus musculus with 8 samples.

Results

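The 10 genes described here are the Fos genes Fos, Fosb, Fosl1 and Fosl2, the Jun genes Jun, Junb and Jund, and the immediate early genes Ier2, Ier3 and Egr1. Their probes were taken by name from the annotation of the arrays, which named probes for 9 of the genes. The probe of Jund carried the older name Jund1 and was matched through its RefSeq accession. Together the 10 genes had 13 of the 41174 probes, and 9 of the 17099 genes tested were among them. The genes were chosen on the measured differences between null and wild type, above all those of Ier3 and Fos. The null against wild-type values of the 10 genes are therefore given as a description. Differences, intervals and calls of these genes show sizes on the scale used for all genes and support nothing, and the question they address is whether Ier3 and Fos stood apart alone or together with the AP-1 family.

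The samples were total RNA of whole mouse embryos at embryonic day 9.0, from 4 Arid3b-null pools and 4 wild-type pools, each holding 3 to 4 embryos and hybridised to its own one-colour Agilent array. The null embryos are labelled Arid3b-null, after the gene of the AT-rich interaction domain protein Arid3b, and the protein was not measured. Neither strain, the design of the null allele nor the litters of the pools are given in the labels, so that p-values cover only the spread among the pools, which may be technical in part. Since whole embryos were pooled, fewer cells of a type and less RNA per cell cannot be told apart.

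AP-1 is a transcription factor made of pairs of Fos and Jun proteins, joined through their leucine zippers. Jun proteins can pair with each other, whereas Fos proteins need a Jun partner to bind DNA. Many of these genes are immediate early genes, which are transcribed within minutes of a growth factor or stress signal without new protein synthesis, and whose messengers are short-lived. The ERK kinase pathway, acting on serum response factor and its partners, is a well-known route to Fos and Egr1.

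The arrays were alike in brightness, with 60.0% to 64.1% of probes well above background and a 75th percentile of 1280 to 1703 signal units. Pools 1 and 2 of both genotypes shared slide 1 and pools 3 and 4 shared slide 2, with null pools at positions 3 and 4 and wild-type pools at positions 1 and 2, so that position and genotype cannot be told apart. The signal of Arid3b was 1.89, 1.83, 1.85 and 2.48 in null pools 1 to 4, against 3.47, 3.29, 3.39 and 3.31 in wild-type pools 1 to 4 (log2, relative to the array's 75th percentile, as are all levels below). Null pool 4 thus kept more Arid3b signal than the other null pools. Of 21 markers of blood, heart, neural tube, vessels, yolk sac, somites and leukocytes, 20 were tested and 1 was called, the erythroid factor gene Klf1, which fell by 0.88. Over all genes 2.85% were called higher and 1.35% lower. The erythroid gene Gata1 differed by -0.73 (limma adjusted p = 0.0525), and Hba-x and Hbb-bh1 by -0.22 and -0.05. Groups also did not overlap for Gata1, Sox1 (-0.36) and Sox2 (-0.19), lower, and Tnnt2 (0.20), higher. Over all genes 8.06% lay apart as lower and 8.08% as higher. The leukocyte marker Ptprc was well above background on 1 of the 8 arrays.

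Promoter sequences are shown for the 3 genes called higher and for Junb, whose probes did not agree in size. Each is the 250 bases before the RefSeq start on GRCm38.p6, written 5′ to 3′ on the gene's strand, with matches to the searched motifs in capitals. The table held promoters for 7 of the 10 genes.
Ier3, chr17:35821463-35821712, plus strand: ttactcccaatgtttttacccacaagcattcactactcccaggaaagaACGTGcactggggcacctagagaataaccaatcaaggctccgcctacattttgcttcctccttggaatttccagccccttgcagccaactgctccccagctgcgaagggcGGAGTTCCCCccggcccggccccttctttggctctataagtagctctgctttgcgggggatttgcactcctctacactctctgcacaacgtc
Fos, chr12:85473640-85473889, plus strand: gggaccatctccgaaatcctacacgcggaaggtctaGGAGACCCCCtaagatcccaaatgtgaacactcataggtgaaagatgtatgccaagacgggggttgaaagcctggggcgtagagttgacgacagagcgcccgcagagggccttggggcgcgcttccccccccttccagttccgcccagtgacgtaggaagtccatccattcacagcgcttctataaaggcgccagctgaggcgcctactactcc
Fosl2, chr5:32136222-32136471, plus strand: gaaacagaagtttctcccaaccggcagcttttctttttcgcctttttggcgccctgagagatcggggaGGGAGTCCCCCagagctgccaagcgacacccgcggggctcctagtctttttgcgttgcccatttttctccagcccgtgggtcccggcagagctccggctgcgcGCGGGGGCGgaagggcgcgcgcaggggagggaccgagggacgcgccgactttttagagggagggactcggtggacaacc
Junb, chr8:84978749-84978998, minus strand: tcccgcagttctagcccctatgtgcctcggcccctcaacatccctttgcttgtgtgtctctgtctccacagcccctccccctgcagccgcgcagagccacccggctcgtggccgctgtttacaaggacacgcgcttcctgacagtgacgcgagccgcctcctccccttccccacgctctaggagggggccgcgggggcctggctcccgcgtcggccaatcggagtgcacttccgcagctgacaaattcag

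The motifs were searched on both strands. They were the NF-kappaB site and the CArG box of serum response factor, both by name, the cAMP response element TGACGTCA, the AP-1 site TGANTCA, the EGR site GCGNGGGCG and the hypoxia element core ACGTG. The capitals mark an NF-kappaB site in Ier3, in Fos and, as a pair of overlapping matches, in Fosl2. They also mark a hypoxia element core in Ier3 and an EGR site in Fosl2. Junb had no match in this window, and neither had Jun. Such matches were not limited to the genes called higher. Fosb, which was not called, had an NF-kappaB site and an EGR site, and Jund, which was not called either, had 2 hypoxia cores. Among all 32851 promoters of the table, 3.90% held the NF-kappaB site, 16.6% the hypoxia core, 4.70% the EGR site, 6.75% the AP-1 site, 1.55% the cAMP response element and 1.47% the CArG box. A match describes letters in the window and is no evidence of binding. Only exact matches were counted, so that the lack of a match, as in Jun and Junb, does not show that a site is absent.

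Of the 9 genes tested, Ier3, Fos and Fosl2 were higher in the null embryos at a limma adjusted p under 0.05 over all genes, 0 were lower (also 0 at an unadjusted p under 0.05) and 6 did not pass. Over all 17099 genes, 2.85% were called higher and 1.35% lower in the null embryos, and 3532 had an unadjusted p under 0.05 in either direction. Since the same contrast was known when the genes were chosen, nothing is read from the 3 calls. As a description only, Fosl2 was called beside Fos and Ier3, and no Jun gene was called when 1 probe stood for each gene. The calls do not part the families sharply. The second probe of Junb differed by 0.42 with groups that did not overlap, and the call of Fosl2 was lost in 3 of 8 fits without a pool.

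Ier3, an early response gene that is induced by stress and by NF-kappaB and acts on cell survival, was the gene with the largest difference among the 10. Its level was 0.17, 0.45, -0.33 and -0.41 in null pools 1 to 4. In wild-type pools 1 to 4 it was -2.92, -2.79, -2.82 and -2.88. All 4 null pools lay far above the wild-type pools, and the null pools of slide 1 lay above those of slide 2. The difference was 2.82 ± 0.19 (SE, log2), a 7.06-fold higher signal, with a 95% interval of 2.39 to 3.25. This was the 8th largest difference among all genes tested. Ier3 also varied more among null pools (SD 0.41, n = 4) than among wild-type pools (SD 0.06, n = 4). Its single probe lies on chromosome 17 at 33924245 to 33924304 (mm7, the build of the array files, from which all probe positions are taken).

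Fos, the founding partner of Jun in AP-1, was measured on 9 or 10 usable spots of 1 probe per array, at chromosome 12, 83478431 to 83478490. The signal was dim, at 70.8, 53.0, 69.4 and 64.9 units in null pools 1 to 4, against 35.7, 29.1, 44.7 and 35.2 units in wild-type pools 1 to 4, before any scaling. The lowest signal flagged as well above background was 29.6, 22.3, 38.3 and 32.1 units in null pools 1 to 4. It was 26.1, 23.5, 28.6 and 22.5 units in wild-type pools 1 to 4, and wild-type Fos lay just over it. Except in pool 2, this floor was higher in the null pool than in the wild-type pool of the same number. Its part in the Fos difference was not tested. In wild-type pool 2, 6 of 9 spots were flagged as above background, and 9 of 10 were in wild-type pool 4 and in null pool 3. Relative to each array's 75th percentile, Fos was at -4.42, -4.59, -4.49 and -4.57 in null pools, against -5.58, -5.52, -5.23 and -5.40 in wild-type pools. The groups did not overlap, and the difference was 0.91 ± 0.09 (SE, log2; 1.88-fold), with a 95% interval of 0.70 to 1.13. The SD between spots on 1 array ran between 0.11 and 0.34.

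Genes of like brightness were set beside Fos, because dim probes are the most exposed to background. The 1571 other genes within 0.5 log2 units of its mean level had a median difference of 0.05, and 51 of them (3.25%) had a difference at least as large as that of Fos. For Fosl2, 74 of 1499 genes of like brightness (4.94%) had at least its difference, and their median was 0.04. For Ier3 it was 1 of 1525 genes. The median difference over all genes was -0.01, and with no filter on dim probes (27670 genes) it was 0.08.

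Fosl2 encodes Fra-2, a Fos-related partner of Jun proteins. One of its probes, at chromosome 5, 31189767 to 31189826, was well above background on all arrays. Its level was -3.51, -3.70, -3.67 and -3.67 in null pools 1 to 4, against -4.21, -4.41, -4.12 and -4.29 in wild-type pools 1 to 4. The null pools all lay above the wild-type pools, by 0.62 ± 0.09 (SE, log2; 1.54-fold, 95% interval 0.42 to 0.82). The second probe, upstream at 31185231 to 31185290, was well above background in 0 of 4 null pools and 1 of 4 wild-type pools, so it gives no size. The call of Fosl2 was lost without wild-type pool 1, wild-type pool 4 or null pool 3, where the difference was 0.64, 0.61 and 0.63. In these fits the genes called higher among all tested numbered 87, 81 and 95, against 487 with all pools. The calls of Fos and Ier3 were kept in all 8 fits without a pool.

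Of the other Fos genes, Fosb was not called and Fosl1 could not be tested. Fosb, which encodes another partner of Jun, was at -4.55, -4.74, -3.12 and -3.04 in null pools 1 to 4, against -3.90, -2.44, -3.15 and -3.10 in wild-type pools 1 to 4. The null pools of slide 1 were the lowest of all, and the groups overlapped. The difference was -0.72 ± 0.47 (SE, log2), with a 95% interval of -1.80 to 0.37, which holds both a fall and a small rise. It was -1.48 within slide 1 and 0.04 within slide 2. Fosl1, which encodes Fra-1, was not well above background on any array, and its probe gives no size.

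Jun, the usual partner of Fos, differed by -0.04 ± 0.07 (SE, log2), with a 95% interval of -0.19 to 0.12. Its level was -0.02, 0.01, -0.05 and -0.01 in null pools 1 to 4, against -0.02, -0.02, 0.13 and -0.02 in wild-type pools 1 to 4. The groups overlapped. The probe had 9 or 10 usable spots per array at chromosome 4, 94441779 to 94441838, and a mean signal of at least 1288 units on every array. Its standard error was the smallest of the 9 genes tested. Jund, a Jun gene that is not strongly induced by growth factors, differed by 0.01 ± 0.15 (SE, log2), with a 95% interval of -0.33 to 0.34. It stood at 4.54, 5.08, 4.61 and 4.55 in null pools 1 to 4, against 4.58, 4.93, 4.56 and 4.70 in wild-type pools 1 to 4.

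Junb, an immediate early Jun gene, was measured by a pair of probes that share 22 of their 60 bases, at chromosome 8, 83563097 to 83563118 on the minus strand. The shared run is shown because the probes are not independent measurements of the gene.
Junb shared probe bases: TTCGTGTCTAAAGTCTATTTTA
The brighter probe, at 83563059 to 83563118, was at 1.87, 2.01, 1.95 and 1.90 in null pools 1 to 4, against 1.78, 2.0, 1.61 and 1.63 in wild-type pools 1 to 4. These groups overlapped, and the difference was 0.18 ± 0.10 (SE, log2). The other probe, at 83563097 to 83563156, was at 1.90, 2.24, 1.98 and 1.95 in null pools, against 1.47, 1.76, 1.63 and 1.55 in wild-type pools. Here the groups did not overlap, and the difference was 0.42 ± 0.10 (SE, log2; 1.33-fold). Fitted over all 25555 probes, the second probe was not called with genotype as the only term, and it was called with the replicate number as a block. Of 11 member probes kept, 3 were called higher without the block and 4 with it, and 4 had groups that did not overlap, all higher in the null embryos. Over all probes kept 2.38% were called higher without the block and 6.68% with it, and 7.54% had null values above all wild-type values.

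**Figure D1:**
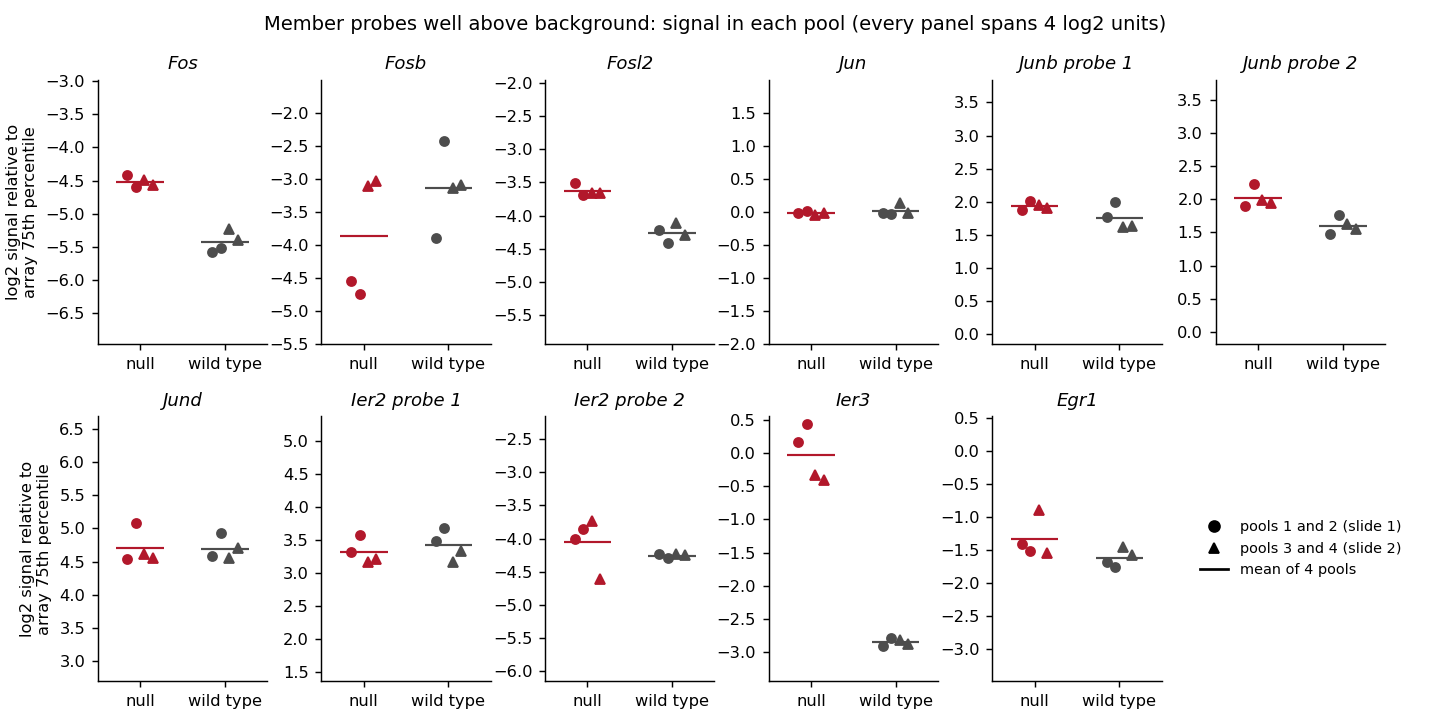
Log2 signal relative to the array's 75th percentile in each pool, for the 11 member probes that were kept, null pools in red on the left and wild-type pools in grey on the right. Circles are pools of slide 1, triangles pools of slide 2, and bars the mean of 4 pools. Ier3, Fos, Fosl2 and the second Junb probe have null pools that all lie above the wild-type pools, and the null pools of Fosb split by slide.

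Egr1, a zinc finger factor induced by ERK signalling, was at -1.41, -1.52, -0.89 and -1.54 in null pools 1 to 4, against -1.68, -1.76, -1.45 and -1.58 in wild-type pools 1 to 4. Null pool 3 was the highest and the groups overlapped. The difference was 0.28 ± 0.16 (SE, log2), with a 95% interval of -0.08 to 0.63. Without null pool 3 it was 0.13. Ier2, a nuclear early response gene, had a bright and a dim probe, both on chromosome 8, with mean levels of 3.32 and -4.05 in null pools. Which of them measures Ier2 better was not tested, and the position in the files of the bright one spans 35 bases. The bright one, at 83243584 to 83243618 in the files, differed by -0.10 ± 0.14 (SE, log2), with a 95% interval of -0.41 to 0.21. The dim one, at 83243758 to 83243816, differed by 0.21 ± 0.18. Both overlapped between the groups.

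**Figure D2:**
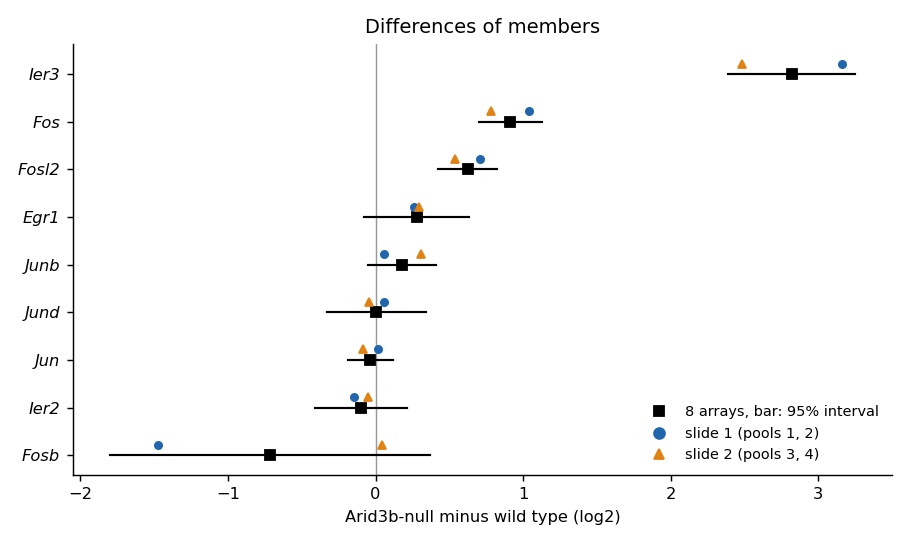
Difference between Arid3b-null and wild-type pools (log2) for the 9 genes tested. Squares are the fit over 8 arrays with its 95% interval, circles the difference within slide 1 and triangles that within slide 2. The intervals of Ier3 (2.39 to 3.25), Fos (0.70 to 1.13) and Fosl2 (0.42 to 0.82) lie above 0, and those of the other 6 genes include it.

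The slides allow a comparison that played no part in the choice of the genes. With genotype in the fit, 0 of the 9 genes differed between slide 2 and slide 1 at a limma adjusted p under 0.05, and 1 did at an unadjusted p under 0.05. Over all 17097 genes 12.4% differed between the slides after adjustment, and 4717 had an unadjusted p under 0.05. The gene with the smallest p was Ier2, with mean levels of 3.22 on slide 2 and 3.52 on slide 1. Its bright probe, used here, differed by -0.29 ± 0.09 (SE, log2; limma adjusted p = 0.0711), and its dim probe by -0.11 ± 0.18. Fosb had the largest difference, 0.81 ± 0.40 (adjusted p = 0.239).

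Whether the genotype difference itself varied between the slides was tested by the interaction of genotype and slide. By limma 0 of the 9 genes passed, with 2 at an unadjusted p under 0.05. Over all 17097 genes 1 passed (0.00585%), and 376 had an unadjusted p under 0.05. Ier3 differed by 2.48 within slide 2 and by 3.16 within slide 1, an interaction of -0.68 ± 0.17 (SE, log2) with an unadjusted p of 0.00679 and a limma adjusted p of 1.0. Fosb, the other gene with an unadjusted p under 0.05, differed by 0.04 within slide 2 and by -1.48 within slide 1. Its interaction was 1.52 ± 0.60 (SE, log2; limma unadjusted p = 0.0438). Fos differed by 0.79 within slide 2 and 1.04 within slide 1, and Fosl2 by 0.54 and 0.71, each with an adjusted p of 1.0.

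A second comparison of that kind asked whether the genes varied together among pools of 1 genotype. Deviations from the group mean over the 8 pools were correlated between Fos and each of the 8 other genes tested, with an exact permutation test within the groups over 576 arrangements. No pair passed after adjustment over the 8 pairs (lowest adjusted p 0.324 for r and 0.317 for rho). For Ier2 r was -0.72 (exact p = 0.0851, adjusted 0.324) and rho -0.71 (exact p = 0.113, adjusted 0.317), and r was -0.65 without wild-type pools 1 and 3, the pools farthest from the median of Fos. For Junb r was -0.69 (exact p = 0.172, adjusted 0.324) and rho -0.88 (exact p = 0.0469, adjusted 0.317), the smallest unadjusted p of the 8 pairs, and r was -0.74 without those pools. For Fosl2 r was 0.67 (exact p = 0.130, adjusted 0.324) and rho 0.64 (exact p = 0.139, adjusted 0.317), and r was 0.88 without those pools. For Ier3 r was 0.01 (exact p = 0.955, adjusted 0.955) and rho 0.10 (exact p = 0.806, adjusted 0.806). These values moved with the scaling between arrays. With quantile normalization r was 0.86 for Ier3, 0.70 for Ier2, 0.55 for Junb and 0.52 for Fosl2. With a median shift it was 0.70 for Ier3, 0.26 for Ier2 and 0.46 for Fosl2. In the deposited table it was 0.20 for Ier3, 0.25 for Ier2 and -0.09 for Fosl2. The sign for Ier2 and Junb and the size for Ier3 thus rest on the scaling, and no relation of Fos to these genes is read from them. With all kept probes of a gene averaged, r was -0.28 for Ier2 and -0.48 for Junb. With 1 probe per gene and slide means also removed, r was 0.60 for Fosl2, -0.68 for Ier2 and -0.15 for Junb. Each slide holds too few pools for a value of its own. The median r of Fos with all genes was 0.03.

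By the same measure, over 8 pools and 17001 genes, the pattern of Ier3 among pools was most like that of Adm (r = 0.99), Sema6b (r = 0.99) and Rhbdf1 (r = 0.97). Adm encodes adrenomedullin, Sema6b a semaphorin and Rhbdf1 an inactive rhomboid protein. Adm differed by 1.80 between null and wild type, Sema6b by 0.67 and Rhbdf1 by 0.11 (log2). The pattern of Fos was most like that of Zmat4 (r = 0.98), the unnamed transcript TC1504758 (r = 0.98) and 1700029F12Rik (r = 0.96), with differences of -0.34, -0.17 and -0.03. These are the highest of many correlations over the same few arrays, on the 75th percentile scale alone, and are given without a test. Those of Ier3 rest mainly on the null pools (SD 0.41, against 0.06 in wild-type pools), which lay apart by slide.

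Other immediate early genes were described from a list of 32, of which 28 were tested. Maff, which encodes a small Maf protein of the leucine zipper class, was the only one called (0.95 ± 0.13, SE, log2; 1.93-fold; limma adjusted p = 0.0132). Its level was 0.73, 0.96, 0.64 and 0.32 in null pools 1 to 4, against -0.37, -0.22, -0.34 and -0.21 in wild-type pools 1 to 4. The list had 1 gene higher, 0 lower and 27 that did not pass, with a median of 0.12 against -0.01 over all genes. At an unadjusted p under 0.05 by limma, 9 of the 28 were higher and 0 lower. Over all 17099 genes 3532 had such a p in either direction, and a share by direction was not taken. With null values all above the wild-type values there were 8 of 28 genes, against 8.08% of all genes, and 0 lay the other way, against 8.06%. The list was chosen with earlier results of these data known, so its counts are a description and support nothing. With the replicate number as a block 6 were called, namely Maff, Nr4a1, Klf6, Klf10, Ccn2 and Gadd45b, all higher, and with slide as a block 5. Over all genes the share called higher was 7.78% with the replicate block and 4.71% with slide as a block, against 2.85% with neither. The call of Maff was lost with a median shift, with normexp, and without wild-type pool 1, wild-type pool 4 or null pool 3. In these fits its difference stayed between 0.86 and 0.98, and the genes called higher among all tested numbered 0 to 106. Btg2 had the lowest difference of the list (-0.23 ± 0.11).

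Several of these genes are named after their values were seen. Atf3, a stress-induced leucine zipper repressor, differed by 0.56 ± 0.16 (SE, log2; adjusted p = 0.0977). Its level was 0.00, 0.51, -0.31 and -0.05 in null pools 1 to 4, against -0.66, -0.53, -0.47 and -0.45 in wild-type pools 1 to 4. The orphan receptor gene Nr4a1 differed by 0.43 ± 0.10 (adjusted p = 0.0551), the zinc finger gene Klf6 by 0.46 ± 0.12 (0.0706) and the growth arrest gene Gadd45b by 0.60 ± 0.17 (0.0891). The matricellular gene Ccn2, with 3 null values, differed by 0.61 ± 0.15 (0.0687). Klf10 differed by 0.43 ± 0.13 (0.110), Klf4 by 0.30 ± 0.10 (0.126) and Ccn1 by 0.28 ± 0.14 (0.292). Some genes of the list stood closer to 0, among them Egr2 at 0.13 ± 0.16 and the phosphatase gene Dusp1 at 0.09 ± 0.08. Myc was at -0.06 ± 0.09 and Ier5 at -0.09 ± 0.10. Of the 28 genes tested, 18 had a higher and 10 a lower mean in the null embryos.

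**Figure D3:**
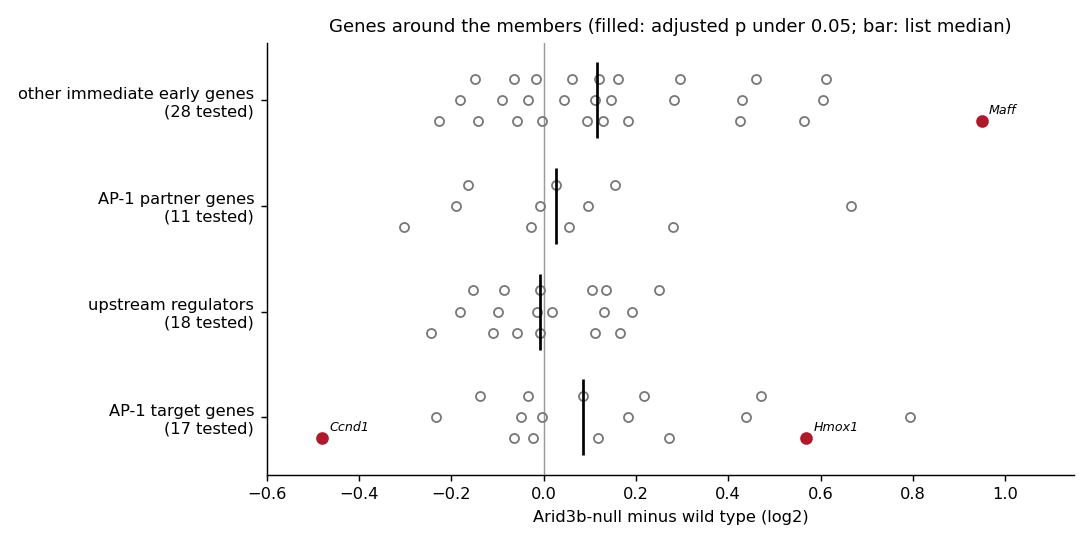
Difference between Arid3b-null and wild-type pools (log2) for the tested genes of 4 lists around Fos, Jun and the immediate early genes. Each circle is a gene, filled where its adjusted p is under 0.05, and the vertical bar is the list median. Maff and Hmox1 are called to the right of 0 and Ccnd1 to the left, and the 18 upstream regulators lie between -0.25 and 0.25.

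Partners and regulators of the members were mostly close to 0. Of 11 AP-1 partner genes tested 0 were called in either direction by limma, with 2 at an unadjusted p under 0.05, and the list median was 0.03. Over all 17099 genes 2.85% were called higher and 1.35% lower, and 3532 had an unadjusted p under 0.05. A count of 0 called in so short a list thus says nothing about it. The smallest p was that of Jdp2, a repressor that dimerises with Jun, at 0.67 ± 0.18 (SE, log2; adjusted p = 0.0853). Its level was 0.47, 1.18, 0.35 and 0.51 in null pools 1 to 4, against -0.18, 0.14, -0.08 and -0.04 in wild-type pools 1 to 4, so the groups did not overlap. Of 18 upstream regulators, such as Srf, Elk3 and the kinases of the ERK, JNK and p38 pathways, 0 were called by limma, with 1 higher and 1 lower at an unadjusted p under 0.05 and a list median of -0.01. The smallest p was that of Map2k1, which encodes the ERK kinase MEK1, at 0.19 ± 0.08 (adjusted p = 0.229). Srf itself differed by -0.11 ± 0.11.

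Of 17 genes known as targets of AP-1, 1 rose, 1 fell and 15 did not pass, with a list median of 0.08. At an unadjusted p under 0.05 by limma, 5 were higher and 1 lower, against 3532 of all 17099 genes in either direction. Over all genes 2.85% were called higher and 1.35% lower, so that so few calls say nothing about the list. Hmox1, the haem oxygenase, stood at 1.68, 1.61, 1.37 and 1.31 in null pools 1 to 4, against 0.96, 1.11, 0.76 and 0.87 in wild-type pools 1 to 4. Its groups did not overlap, with a difference of 0.57 ± 0.12 (SE, log2; adjusted p = 0.0380). Ccnd1, the cyclin of G1 phase, was at 2.40, 2.50, 2.34 and 2.44 in null pools, against 2.91, 2.94, 2.92 and 2.82 in wild-type pools. It fell by 0.48 ± 0.07 (SE, log2; adjusted p = 0.0143). Plau, the urokinase gene, named after its value was seen, differed by 0.44 ± 0.13 (SE, log2) and did not pass (adjusted p = 0.0990).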

How the data were processed

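Per the file headers, each array was read by Agilent Feature Extraction 9.5.3.1, and the deposited processed intensity is a Cy3 signal from which a fitted background and spatial trend were removed within the array, with nothing scaled between arrays. Mean spot and local background intensity served an alternative only. The steps behind the deposited table of log2 values (27108 probes, column medians 9.44 to 9.47) were not given in the sources used here. Its columns correlated with log2 processed signals at 0.988 or more, its null minus wild-type differences at 0.957 with those of quantile-normalized signals, and its added constant and exact scale stay unknown.

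Control and outlier-flagged spots were left out, spots of a probe averaged on the log2 scale, and each array's 75th percentile subtracted. Probes above background on at least 4 arrays were kept, where at least 0.5 of their spots were. A gene was represented by its brightest kept probe, with at least 2 values per group. Names were updated through RefSeq (GRCm38.p6). Accessions named 22951 of 41174 probes, current symbols 6659 and older names 3109, and 8455 kept the name in the file. The comparison of genotypes used limma 3.58.1 (R 4.3.3) with genotype as the only term, with Benjamini-Hochberg adjustment over all genes and calls at an adjusted p under 0.05. No array had more than 2 saturated spots. The steps were tested on simulated data.

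Members and lists were chosen with earlier results of these data known. The rule for naming genes gave all members, Arid3b, up to 4 called genes per list or the one with the smallest p, and the 3 genes most like Fos and Ier3. Further genes of the lists, among them Atf3, Btg2, Srf and Plau, were named outside this rule with their values known. Same-numbered pools deviated together over all genes (r = 0.557, 0.635, 0.522 and 0.426), and a fit with the replicate number as a block was therefore run as the paired one. With slide means removed r was 0.518 on slide 1 and 0.0982 on slide 2. The number of arrays limits the precision. One gene of the AP-1 target list is counted but not reported here.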

Additional observations from a re-analysis of the deposited data

Results flagged for a closer look

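In 3 of 22 groups of 4 pools, 1 pool stood far from the other 3, where chance flags about 1 group in 20. Fosl2 in null pool 1 was at -3.51, with the other null pools between -3.70 and -3.67. Jun in wild-type pool 3 was at 0.13, with the other wild-type pools all at -0.02. Jund in null pool 2 was at 5.08, with the other null pools between 4.54 and 4.61.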

How the results depend on the processing

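Of the 3 members called higher, 1 was called with no shift between arrays, 0 with normexp background correction, and 0 within slide 1 or within slide 2, each with 2 pools per group. Over all genes, 125 were called higher with no shift, against 487 in the main setting, and 0 with normexp or within either slide (740, 1880 and 2879 in either direction at an unadjusted p under 0.05 by limma). Under normexp Fos differed by -0.054 and Fosl2 by -0.036. Normexp was run with an added offset of 50 units, which is of the size of the Fos signal. No other offset was run, so its part in these values was not tested. Normexp also left a raised floor in pool 4 of both groups (10th percentiles of 9.12 in null pool 4 and 9.88 in wild-type pool 4, against 6.11 to 7.28 elsewhere). Without those pools, an alternative chosen after seeing the data, Fos differed by 0.09, Fosl2 by 0.10 and Ier3 by 2.34, with 1 member called. Over 21 alternatives the difference of Ier3 lay between 1.91 and 3.16, and 20 of 21 kept the direction of Fos and of Fosl2. Several of these alternatives return the main value by design, and others only leave out a pool. The count of kept directions is therefore no support for the differences. In the deposited table Fos differed by 0.41 and Fosl2 by 0.32, against 0.91 and 0.62 in the main setting, and the call of Fosl2 was lost. The replicate block kept all 3 calls at gene level, and the fits without a pool gave 2 to 3.

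Of the other immediate early genes 0 were called higher with a median shift, normexp or within slide 1 or slide 2. It was 2 with quantile normalization or with the filter on all 8 arrays, 3 with the deposited table, 5 with slide as a block, 6 with the replicate block and 0 to 2 without a pool (0 without wild-type pool 1, wild-type pool 4 or null pool 3). A median shift moved the median of all genes to -0.10 and left 106 genes called higher. Between slides 1 member was called with quantile normalization, 2 with the deposited table and 0 to 1 without a pool. Over all alternatives the correlation with Fos ranged between -0.12 and 0.86 for Ier3 and between -0.09 and 0.99 for Fosl2. Not only the scaling moved them, as the lowest for Ier3 came without null pool 4 and the highest for Fosl2 with normexp. Beyond these, the causes were not tested.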
